A study of Mus musculus with 8 samples.

Results

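Clu, Ly6a, Anxa1, Anxa3, Anxa8, Il33, Gja1, Spp1 and Tnfrsf12a are 9 genes used as markers of fetal and regenerating gut epithelium. They were taken by symbol from the 53801 genes of the count table and followed in sorted Paneth cells of the mouse small intestine. The comparison was between β-cat GOF; Mll1+/- animals (controls 1 to 4) and β-cat GOF; Mll1-/- animals (knockouts 1 to 4). Both groups carried the stabilised β-catenin allele, and the controls had themselves lost 1 copy of Mll1 (Kmt2a), so no group with both copies or with normal β-catenin entered the comparison. Recombination was driven by Lgr5-EGFP-IRES-CreERT2, which is active in crypt stem cells in a mosaic, and was induced with 1 mg tamoxifen on 3 days in animals of 4 to 6 weeks. The cells were collected 10 days after induction as viable EpCAM+ Cd24+ cells, with 300 cells per sample, and turned into Smart-seq2 libraries, in which polyadenylated RNA is copied and amplified by PCR. The genotypes are those of the sample labels; the study's paragraph on sorting names littermates without β-cat GOF.

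Adult intestinal epithelium renews itself from Lgr5+ stem cells, whereas the fetal epithelium and the epithelium that closes a wound express a different set of genes. Clu marks the rare revival stem cells that appear after damage, and Ly6a (Sca-1) and several annexins mark fetal spheroids and the flat epithelium over ulcers. This programme is associated with Yap and Tead activity, and it is usually low in mature secretory cells such as Paneth cells, which make antimicrobial peptides at the crypt base.

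Paneth cell transcripts were abundant in all 8 libraries, with 256862 to 713130 counts of Lyz1. The 13 Paneth markers examined, among them Lyz1, Mmp7 and Defa24, all passed the filter on low counts, none was called, and their median log2 fold change was -0.07. Total counts lay between 13037832 and 14380240. Knockout 3 stood apart, with 19662 genes that had any count, against 22623 to 26074 in the others, with 2.04% mitochondrial counts, and with 88.1% of its counts in 50 genes. Calls of the genes named below that change without it are given. Without it the median of the Paneth markers was -0.56, with 12 of 13 below 0, against -0.01 over all genes tested. The targeted gene, Kmt2a, had 22.5 to 45.2 normalized CPM in controls and 25.7 to 38.6 in knockouts; the count covers all exons, not the deleted part alone, and does not check the labels. Levels are given as normalized CPM, that is, CPM with library sizes scaled by TMM. A count of 3, taken as the floor, corresponds to 0.173 to 0.353 normalized CPM, and covers counting error only, since PCR copies were not removed.

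The 9 genes lie on 6 chromosomes of mm10, and the counts cover all annotated exons, UTRs included. Clu (ENSMUSG00000022037) lies at chr14:65968483-65981547 on the plus strand, and Anxa8 (ENSMUSG00000021950) at chr14:34085981-34100571 on the plus strand. Ly6a (ENSMUSG00000075602) lies at chr15:74994877-74998031 on the minus strand, and Tnfrsf12a (ENSMUSG00000023905) at chr17:23675447-23677449 on the minus strand. Anxa1 (ENSMUSG00000024659) lies at chr19:20373428-20390944 on the minus strand, and Il33 (ENSMUSG00000024810) at chr19:29925114-29960718 on the plus strand. Anxa3 (ENSMUSG00000029484) lies at chr5:96793339-96845966 and Spp1 (ENSMUSG00000029304) at chr5:104435118-104441050, both on the plus strand. Gja1 (ENSMUSG00000050953) lies at chr10:56377330-56402513 on the plus strand. Exons of Spp1 share 18.8% of their bases with Gm42793 and those of Anxa3 share 3.1% with Gm42603. Ly6a belongs to a cluster of closely related genes, so reads that fit several of them would not have been counted.

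RefSeq promoter sequences (GRCm38.p6) were at hand for 6 of the 9 genes (Anxa1, Anxa8, Gja1, Il33, Spp1 and Tnfrsf12a), in 8 windows. Clu, Ly6a and Anxa3 were not matched. The 250 bases before each start were searched on both strands for GGAATG, the core bound by Tead factors, for TGAGTCA, bound by AP-1, for CTTTGAT, bound by Tcf/Lef, and for TATAAA. The Tead core stood in 12.6% of 32851 windows of this length from all genes, the AP-1 letters in 4.5%, the Tcf/Lef letters in 3.2% and TATAAA in 12.4%. Among the members' windows, the Tead core stood in both windows of Il33 and in that of Anxa1, and TGAGTCA in that of Gja1, 19 bases before the start, while CTTTGAT was in none. The windows of Il33, Anxa1 and Tnfrsf12a are shown because these genes had the highest levels among those with a sequence. Capitals mark GGAATG (or CATTCC on the other strand) and TATAAA. All run 5′ to 3′ on the strand of the gene.
Il33, first start (chr19:29924863-29925112, plus strand): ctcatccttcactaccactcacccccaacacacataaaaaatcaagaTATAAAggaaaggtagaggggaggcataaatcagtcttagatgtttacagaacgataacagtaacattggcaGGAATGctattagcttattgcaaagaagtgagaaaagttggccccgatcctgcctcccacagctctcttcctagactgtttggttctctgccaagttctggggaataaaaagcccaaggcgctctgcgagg
Il33, second start (chr19:29945540-29945789, plus strand): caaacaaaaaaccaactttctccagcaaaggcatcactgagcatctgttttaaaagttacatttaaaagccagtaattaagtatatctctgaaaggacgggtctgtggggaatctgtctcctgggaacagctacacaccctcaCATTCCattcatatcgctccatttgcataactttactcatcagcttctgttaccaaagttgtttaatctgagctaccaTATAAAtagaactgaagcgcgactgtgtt
Anxa1 (chr19:20390672-20390921, minus strand): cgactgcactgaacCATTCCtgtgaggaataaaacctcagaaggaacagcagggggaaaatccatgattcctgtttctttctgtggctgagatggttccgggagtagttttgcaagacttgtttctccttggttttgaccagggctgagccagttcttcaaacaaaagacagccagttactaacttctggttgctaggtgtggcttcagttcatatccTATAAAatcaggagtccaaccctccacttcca
Tnfrsf12a (chr17:23677450-23677699, minus strand): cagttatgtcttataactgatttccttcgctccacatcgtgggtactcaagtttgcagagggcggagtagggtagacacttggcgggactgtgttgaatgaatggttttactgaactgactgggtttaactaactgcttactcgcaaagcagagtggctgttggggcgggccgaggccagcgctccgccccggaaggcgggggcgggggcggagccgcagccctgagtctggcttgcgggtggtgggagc
In the second Il33 window and in that of Anxa1, TATAAA stood 29 and 32 bases before the start. In the first Il33 window it stood 203 bases before the start, and in a window of Spp1, not shown, 211 bases. The window of Tnfrsf12a held none of the letters searched for. These are matches of letters only, and binding was not measured.

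Of the 9 genes, 5 (Clu, Il33, Anxa1, Anxa3 and Tnfrsf12a) had enough counts for the test across 13439 genes, and all 5 had a higher mean in knockouts, as did 50.9% of all genes tested. Their median log2 fold change was 1.89, against 0.01 over all genes tested. A gene was called where edgeR's quasi-likelihood test gave an adjusted p (Benjamini-Hochberg) no higher than 0.05 and the log2 fold change was 0.5 or more in size. Where no other fit is named, calls are those of this fit. None of the 5 met this rule, and 25 of all genes tested, or 0.186%, met it in either direction. At an unadjusted p under 0.05, Clu and Tnfrsf12a were higher, as were 4.35% of all genes tested, while 2.53% were lower at that limit. The other 4 genes (Ly6a, Anxa8, Gja1 and Spp1) fell below the filter and are described by their counts. Because a gene passes the filter more easily when 1 group is high, the 5 tested genes do not stand for all 9. Each library is a pool of 300 cells, and more cells with a transcript and more RNA per cell cannot be told apart in it.

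**Figure D1:**
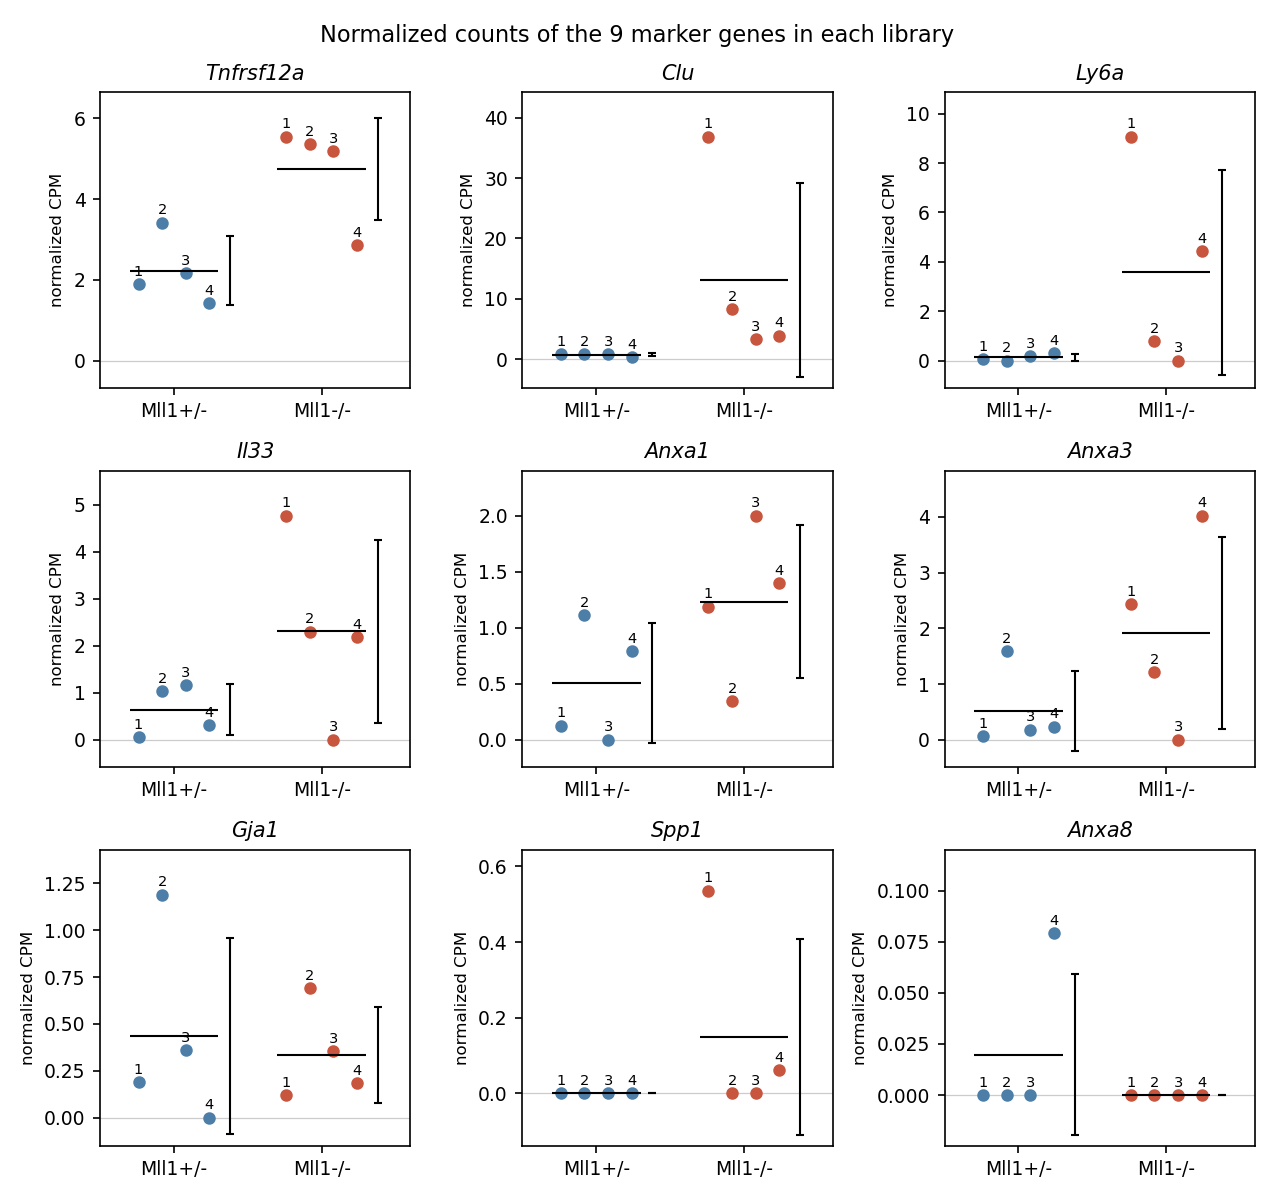
Normalized CPM of the 9 genes (one panel each, linear axis) in the Mll1+/- controls (blue) and Mll1-/- knockouts (red), with replicate numbers above the points; horizontal lines are group means and the bars beside them the SD (n = 4). Clu is the gene whose 4 knockouts (3.3 to 36.9) all sit above its 4 controls (0.317 to 0.817), while Ly6a, Il33 and Anxa3 have knockout 3 at 0.

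Clu, which encodes the secreted chaperone clusterin, had the largest log2 fold change of the 5 tested genes. Its raw counts were 13, 10, 9 and 4 in controls 1 to 4 and 619, 143, 28 and 64 in knockouts 1 to 4. In normalized CPM these were 0.817, 0.796, 0.81 and 0.317 in controls, and 36.9, 8.24, 3.3 and 3.89 in knockouts. Every knockout lay above every control, which was so for 2.59% of all genes tested, and among the 5 tested markers for Clu alone. The mean was 0.685 ± 0.246 in controls and 13.1 ± 16.0 in knockouts (SD, n = 4 each), with knockout 1 far above the rest and medians of 0.803 and 6.06. The two-sided exact permutation test gave p = 0.0286, the smallest that 4 against 4 libraries allow. In edgeR's test across all genes the log2 fold change was 4.24 (SE 0.8) and the adjusted p was 0.079, so Clu was not called. Without knockout 1 the log2 fold change was 2.91, without knockout 3 it was 4.55, and with a covariate for Y-linked expression it was 3.28 (adjusted p = 0.339 by edgeR).

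The call of Clu differed between fits. DESeq2's Wald test called it with an adjusted p of 6.83e-07, and called 1.03% of the genes it tested. edgeR with the library set as a block, that is, the 2 runs of library numbers in the labels, gave a log2 fold change of 3.91 and an adjusted p of 0.0469, and this fit called 0.179% of the genes. Without knockout 3 the adjusted p was 0.0487, where 1.08% of the genes were called. Within the first library set, the mean of Clu was 0.807 normalized CPM in controls 1 and 2 and 22.6 in knockouts 1 and 2. Within the second it was 0.563 in controls 3 and 4 and 3.6 in knockouts 3 and 4.

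Il33, an alarmin cytokine held in the nucleus and released on damage, had counts of 1, 13, 13 and 4 in controls and 80, 40, 0 and 36 in knockouts. These were 0.0629, 1.03, 1.17 and 0.317 normalized CPM in controls and 4.77, 2.3, 0 and 2.19 in knockouts. Knockouts 1, 2 and 4 lay above all controls, whereas knockout 3 had no count, which allows up to 0.353 normalized CPM, and the groups overlapped. The log2 fold change was 1.89 (SE 0.96) with an adjusted p of 0.787 by edgeR, and the exact permutation p was 0.2 for means of 0.646 ± 0.54 and 2.32 ± 1.95 (SD, n = 4 each). Within the library sets the means were 0.549 and 3.54 in the first and 0.743 and 1.1 in the second, controls first. Its receptor gene Il1rl1 (St2), named with Il1rap after their values were seen, had 6 counts over all controls and 1 over all knockouts. The co-receptor gene Il1rap was measured at 1.75 ± 0.621 and 2.62 ± 0.248 normalized CPM (log2 fold change 0.59, SE 0.39, adjusted p = 0.88 by edgeR).

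Spp1, which encodes the secreted integrin and Cd44 ligand osteopontin, was almost silent. No control had a count, and the knockouts had 9, 0, 0 and 1. Knockout 1 alone, at 0.536 normalized CPM, lay above the floor, and no fold is given because the mean of the knockouts lay under it. Among the receptors for osteopontin, Itgb1 was at 32.9 ± 5.43 normalized CPM in controls and 40.6 ± 7.12 in knockouts (log2 fold change 0.31, SE 0.19, adjusted p = 0.853 by edgeR). Cd44 was at 28.7 ± 3.51 and 33.0 ± 8.05 (0.20, SE 0.20, adjusted p = 0.943 by edgeR). Itgav, named here after its values were seen, was at 5.48 ± 0.946 and 10.1 ± 2.4, without overlap of the groups (0.88, SE 0.26, adjusted p = 0.39 by edgeR).

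Ly6a, a GPI-anchored surface protein known as Sca-1, was at or close to 0 in controls, with counts of 1, 0, 2 and 4, and had 152, 14, 0 and 73 in knockouts. In normalized CPM the controls had 0.0629, 0, 0.18 and 0.317, and the knockouts 9.06, 0.806, 0 and 4.44. Knockouts 1, 2 and 4 lay above every control and knockout 3 did not, so the groups overlapped. The means were 0.14 ± 0.139 and 3.58 ± 4.13 normalized CPM (SD, n = 4 each), and the exact permutation p was 0.143. Ly6a did not pass the filter. In the edgeR fit without a filter, which called 0.783% of 37039 genes, its log2 fold change was 4.66 (SE 0.74) with an adjusted p of 1.68e-06, and it was the 1 member called there. Without knockout 3, the knockout with no count, it passed the filter through the counts of the other 3 knockouts, so that it had to differ, and its log2 fold change there was 5.05 with an adjusted p of 0.0177. With each control left out in turn it also passed the filter through its knockouts, so that it had to differ there too, and had adjusted p-values between 0.524 and 0.667. The mean of the controls, 0.14, lay under the floor of 3 counts, which was 0.189 to 0.27 normalized CPM in controls. The size of the Ly6a fold changes is therefore uncertain. Within the first library set the means of Ly6a were 0.0314 in controls and 4.93 in knockouts, and within the second 0.248 and 2.22.

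Of 13 further Ly6 genes in the table, 3 passed the filter, with a median log2 fold change of -0.28, and none was called or had an unadjusted p under 0.05. Without knockout 3 all 3 lay below 0, with a median of -0.43, and Ly6e was at -0.2. Ly6e lay at 81.7 ± 19.5 normalized CPM in controls and 92.8 ± 47.6 in knockouts (log2 fold change 0.18, SE 0.32), Lypd8 at 184 ± 30.0 and 151 ± 33.0 (-0.28, SE 0.20), and Ly6g6d at 6.98 ± 5.22 and 2.88 ± 2.51 (-1.25, SE 0.68). Ly6d, named after its values were seen, had no count in any control and 133, 104, 0 and 5 in knockouts.

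Tnfrsf12a, the receptor (Fn14) of the cytokine Tweak, was the highest of the 9 genes per length in controls and also in knockouts. Its counts were 30, 43, 24 and 18 in controls and 93, 93, 44 and 47 in knockouts. In normalized CPM the controls had 1.89, 3.42, 2.16 and 1.43, and the knockouts 5.54, 5.36, 5.18 and 2.86. Knockouts 1 to 3 lay above every control and knockout 4 lay below control 2. The means were 2.22 ± 0.855 and 4.74 ± 1.26 (SD, n = 4 each), with an exact permutation p of 0.0571. The log2 fold change was 1.09 (SE 0.37), with an adjusted p of 0.513 by edgeR. Within the library sets, the means were 2.65 and 5.45 in the first, and 1.79 and 4.02 in the second, controls first. The ligand gene Tnfsf12, named after its values were seen, had 19 counts over the controls and 23 over the knockouts, 48.3% of its exon bases being shared with Tnfsfm13. Birc2, an inhibitor of apoptosis that works below the receptor, was at 15.2 ± 4.26 and 16.7 ± 5.93 normalized CPM (0.13, SE 0.28, adjusted p = 0.985 by edgeR). Without knockout 3 the log2 fold change of Birc2 was -0.13.

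Gja1, the gap junction protein connexin 43, was low in both groups, with counts of 3, 15, 4 and 0 in controls and 2, 12, 3 and 3 in knockouts. The means were 0.436 normalized CPM in controls and 0.337 in knockouts, the ranges overlapped, and the exact permutation p was 0.8. Its log2 fold change was -0.34 in the fit without a filter. Of 19 further connexin genes, Gjb1 and Gjb2 passed the filter, with log2 fold changes of 0.02 (SE 0.34) and 0.30 (SE 0.42), and neither was called or had an unadjusted p under 0.05. Without knockout 3 both lay below 0, with a median of -0.27.

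The 3 annexins among the markers, which encode calcium-dependent membrane-binding proteins, were low. Anxa1 had counts of 2, 14, 0 and 10 in controls and 20, 6, 17 and 23 in knockouts. In normalized CPM these were 0.126, 1.11, 0 and 0.792 against 1.19, 0.346, 2.0 and 1.4, so that knockout 2 lay within controls and knockout 3 was the highest. The log2 fold change of Anxa1 was 1.24 (SE 0.87), with an adjusted p of 0.889 by edgeR and an exact permutation p of 0.143. Anxa3 had counts of 1, 20, 2 and 3 in controls and 41, 21, 0 and 66 in knockouts. In normalized CPM these were 0.0629, 1.59, 0.18 and 0.238 against 2.44, 1.21, 0 and 4.02. Control 2 lay above knockouts 2 and 3, and the log2 fold change of 1.91 (SE 1.04) had an adjusted p of 0.817 by edgeR and an exact permutation p of 0.257. Leaving out control 2 moved it to 3.57. Anxa8 had 1 count in control 4 and none in the other 7 libraries, so a difference was not detectable at this depth.

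Of 9 annexin genes outside the markers, 6 passed the filter and lay at 1.89 to 30.1 normalized CPM per kilobase over all libraries, above the 3 markers, while Anxa9, Anxa10 and Anxa11 lay at 0.12 or below. All 6 had a log2 fold change above 0 with a median of 0.53, and none was called, although Anxa2, Anxa5 and Anxa6 had an unadjusted p under 0.05. Anxa2 was at 15.6 ± 0.647 normalized CPM in controls and 33.4 ± 8.2 in knockouts, without overlap (log2 fold change 1.10, SE 0.21, adjusted p = 0.0766 by edgeR). It was called by DESeq2's Wald test with an adjusted p of 0.000378 and by edgeR without a filter with 0.000904. Without knockout 3 its log2 fold change was 1.26 with an adjusted p of 0.00086 by edgeR, and it was called. Anxa5 was at 10.2 ± 2.53 and 15.9 ± 2.24 (0.64, SE 0.23, adjusted p = 0.538 by edgeR). Anxa4 and Anxa13 had log2 fold changes of 0.04 (SE 0.18) and 0.43 (SE 0.22).

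**Figure D2:**
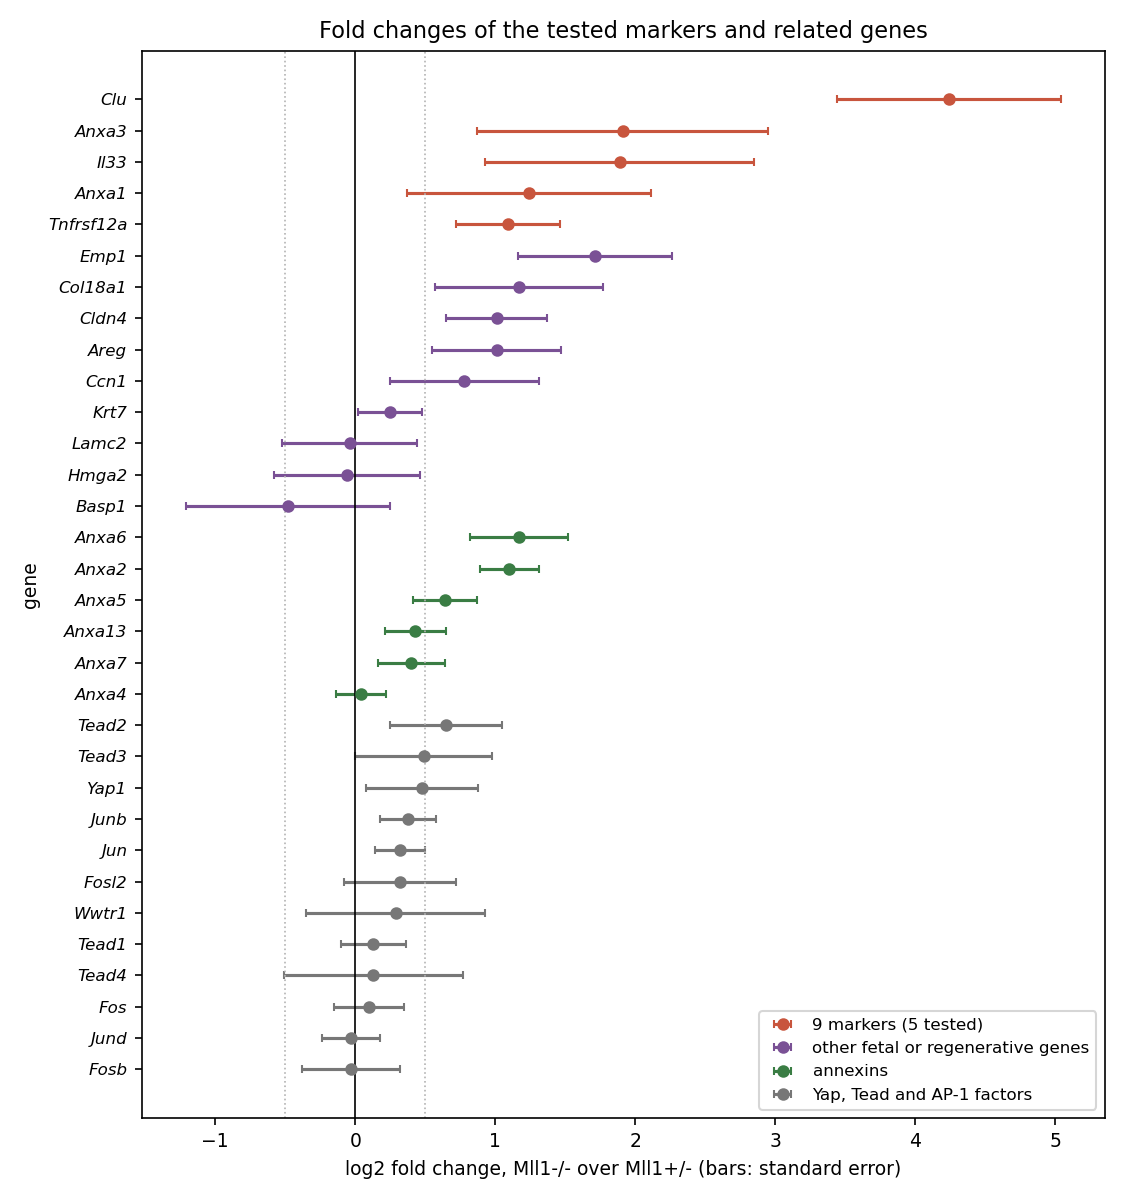
Log2 fold change of the Mll1-/- over the Mll1+/- libraries (x axis, edgeR) for the 5 tested markers (red), 9 other fetal or regenerative genes (purple), 6 annexins (green) and 12 Yap, Tead and AP-1 factors (grey); bars are standard errors and dotted lines mark 0.5 in size. The red points lie between 1.09 and 4.24, and the grey ones have a median of 0.3.

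Compared per kilobase of exon over all libraries, Tnfrsf12a stood at 3.61 normalized CPM, Clu at 2.0, Ly6a at 1.54 and Il33 at 0.513. Anxa1 and Anxa3 followed at 0.334 each, and Spp1, Gja1 and Anxa8 lay at 0.0453 or below. Among all genes tested, 73.5% had a lower level per kilobase than Tnfrsf12a and 58.7% than Clu, whereas 19.7% had one lower than Il33 and 11.3% than Anxa1 or Anxa3. In the controls, Il33, Clu, Anxa1, Anxa3 and Ly6a lay between 0.116 and 0.224 with overlapping ranges, so that their order there cannot be told apart. In the knockouts, the range of Tnfrsf12a (2.97 to 5.75) lay within that of Clu (0.96 to 10.7).

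The markers were not highest in the same libraries. Knockout 1 was the highest of the 8 libraries for Clu, Ly6a, Il33, Spp1 and Tnfrsf12a, knockout 4 for Anxa3 and knockout 3 for Anxa1, while control 2 was highest for Gja1 and control 4 for Anxa8. Knockout 3 had a count for 4 of the 9 genes and knockouts 1, 2 and 4 for 8, 7 and 8, against 6 or 7 in controls. Genes with at least 10 counts numbered 2, 6, 2 and 2 in controls and 6, 6, 3 and 6 in knockouts. The summed level of the 9 was 3.21, 9.15, 4.86 and 3.48 normalized CPM in controls and 60.5, 18.9, 10.8 and 19.0 in knockouts. Clu made up 60.9% of the summed count in knockout 1 and 20.4% in knockout 4.

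**Figure D3:**
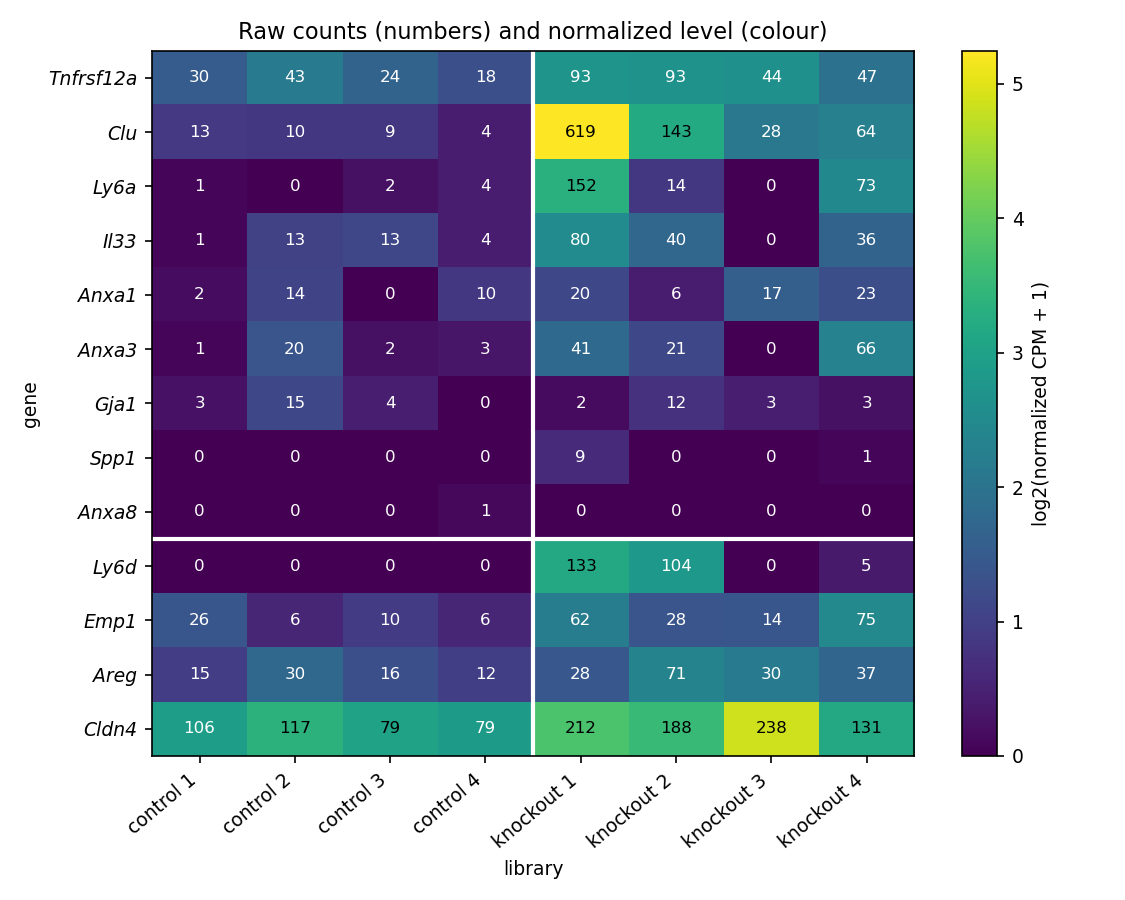
Raw counts (numbers) and log2(normalized CPM + 1) (colour scale) of the 9 markers, above the white line, and 4 further fetal or regenerative genes chosen after their values were seen, below it, in the 8 libraries (columns). Knockout 3 holds no count of Ly6a, Il33, Anxa3 or Ly6d, and the 4 controls hold none of Ly6d.

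Among the genes tested, those most like the 3 markers with the highest mean normalized CPM over all libraries were sought. Clu was closest to Gm42648, Fbxo8 and Ifi47, with Pearson's r of 0.992, 0.99 and 0.97 over 8 libraries after centring within genotype. Tnfrsf12a was closest to Syne1, Mx2 and Ube2n (0.973, 0.957 and 0.955), and Ly6a to Elavl4, Cacna1d and Phf2 (0.966, 0.962 and 0.96). These are the highest of all genes tested, the points share library and depth, and no test was made.

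Of 20 further genes of the fetal and regenerative programme, 9 passed the filter, 6 had a log2 fold change above 0 and 3 below, the median was 0.78, and none was called. At an unadjusted p under 0.05, 2 of them (Cldn4 and Emp1) were higher. Cldn4, a tight junction protein, was at 7.34 ± 1.36 normalized CPM in controls and 14.9 ± 8.99 in knockouts (log2 fold change 1.01, SE 0.36, adjusted p = 0.553 by edgeR, and 0.0486 without a filter). Knockout 3 had 28.0 normalized CPM of Cldn4, against 7.97 to 12.6 in the other knockouts. Without knockout 3 the log2 fold change of Cldn4 was 0.51 (adjusted p = 0.446 by edgeR). Ccn1, a secreted Yap target, was at 5.12 ± 3.2 and 8.75 ± 4.46 (0.78, SE 0.53), the keratin gene Krt7 at 37.6 ± 4.68 and 44.9 ± 15.0 (0.25, SE 0.23) and Basp1 at 8.75 ± 5.91 and 6.22 ± 6.42 (-0.48, SE 0.73). Against the floor of 3 counts averaged over the controls, the mean of Ly6d in knockouts, 3.55 ± 4.01 normalized CPM, was at least 15.2-fold higher, and without knockout 1 at least 8.98-fold. It had an exact permutation p of 0.143, and edgeR without a filter called it with an adjusted p of 0.025. Ccn2 had 2 counts in all, and Msln and Sprr1a had none in any library.

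Of 26 ligands, receptors and signal partners of the 9, 17 passed the filter, 14 were above 0 and 3 below, with a median log2 fold change of 0.2, and none was called. At an unadjusted p under 0.05 Itgav was higher and Itga4 lower (-1.70, SE 0.68, adjusted p = 0.658 by edgeR), both named after their values were seen. Vldlr was at 14.9 ± 7.51 and 25.2 ± 16.2 normalized CPM (0.75, SE 0.47). Without knockout 3, 11 of the 17 were above 0 and 6 below, with a median of 0.23, and Vldlr was at 0.29. Of 13 Yap, Tead and AP-1 factors 12 passed the filter, with a median of 0.3, and none was called or had an unadjusted p under 0.05. Fos stood at 176 ± 48.0 and 188 ± 51.5 normalized CPM, Jun at 58.6 ± 12.8 and 73.3 ± 4.17, Junb at 20.7 ± 4.27 and 27.1 ± 4.98, and Jund, which shares 52.6% of its exon bases with Gm11175 on the other strand, at 14.9 ± 1.62 and 14.6 ± 3.09.

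The 8 crypt stem cell markers had a median log2 fold change of -0.25 (3 above 0 and 5 below), and none was called. At an unadjusted p under 0.05, Axin2 and Rnf43 were higher and Olfm4, Slc12a2 and Ascl2 lower, of which Axin2, Rnf43 and Ascl2 are named after their values were seen. Olfm4 was at 876 ± 306 normalized CPM in controls and 406 ± 241 in knockouts (-1.11, SE 0.47, adjusted p = 0.671 by edgeR). Slc12a2 was at 184 ± 59.5 and 102 ± 27.4 without overlap of the groups (-0.85, SE 0.27, adjusted p = 0.468 by edgeR). Smoc2 was at 54.6 ± 5.39 and 52.8 ± 3.98 (-0.05, SE 0.15) and Cdca7 at 28.2 ± 5.46 and 20.7 ± 5.45 (-0.45, SE 0.23). Rnf43, a Wnt feedback inhibitor, was called by DESeq2's Wald test (log2 fold change 0.87, adjusted p = 0.0386), and Axin2 and Slc12a2 by edgeR without a filter (adjusted p = 0.0134 and 0.00879).

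Several of the 9 genes are also expressed by macrophages, fibroblasts or endothelium, so markers of these cells were read in the same libraries. The sort took EpCAM+ cells, and the staining included an antibody against CD45, the product of Ptprc. The 18 immune markers summed to 23.5 to 47.9 normalized CPM in controls and 21.3 to 35.0 in knockouts. Of them 4 passed the filter (Ptprc, Cd68, H2-Aa and Lcp1), with a median log2 fold change of -0.15, and 10 had at most 3 counts in every library, among them Cd3e, Adgre1, Tyrobp and S100a8. In knockout 1, which had the most Clu and Ly6a, the immune sum was 35.0. The 15 stromal and endothelial markers summed to 4.51 to 8.05 in controls and 5.96 to 7.54 in knockouts, of which Pecam1, the 1 that passed, took 4.41 and 4.62 on average, and Col1a1, Dcn and Pdgfra had at most 8 counts in a library. The sums overlapped between the genotypes in both lists. All 8 enteroendocrine markers had a log2 fold change below 0 with a median of -1.63, none was called, Chga and Neurod1 were called by DESeq2 and Neurod1 by edgeR without a filter, and their sum ran from 620 to 781 in controls and 44.2 to 613 in knockouts. The 7 tuft markers tested had a median of -0.83, the 6 enterocyte markers -0.85 and the 9 goblet markers 0.1, and none was called. At an unadjusted p under 0.05, 4 enteroendocrine, 3 enterocyte and 2 goblet markers were lower, against 2.53% of all genes tested, and none of the 13 Paneth, 7 tuft, 4 immune and 1 stromal markers tested had such a p. Among the stromal markers under the filter, Pdgfrb had 7, 7, 3 and 6 counts in controls and 1, 0, 0 and 0 in knockouts, without overlap (exact permutation p = 0.0286). Outside the enteroendocrine list, the enterocyte marker Fabp2 was the 1 cell type marker called by DESeq2 and by edgeR without a filter. Without knockout 3 the medians of the goblet and immune markers changed sign, to -0.36 (8 of 9 below 0) and 0.07, and those of the enteroendocrine, tuft and enterocyte markers were -1.69, -0.57 and -0.55. The part of these shifts in the levels of the 9 genes was not tested.

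**Figure D4:**
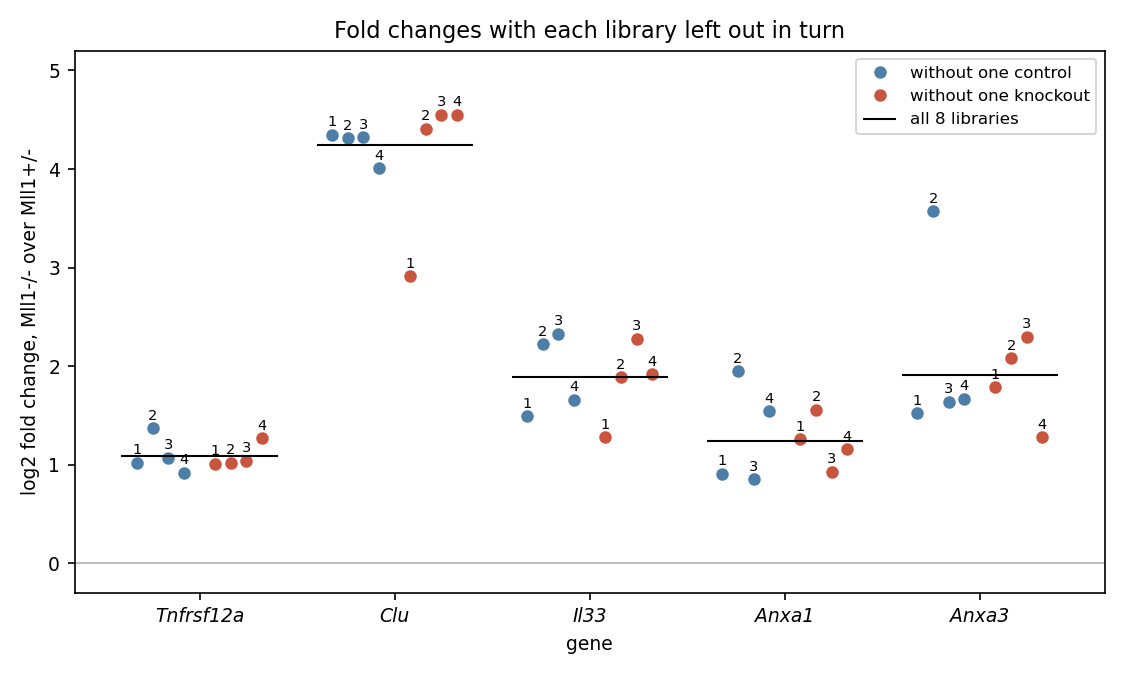
Log2 fold change of the 5 tested markers (edgeR, y axis) with all 8 libraries (black line) and with 1 control (blue) or 1 knockout (red) left out, numbered by replicate. All 40 values lie above 0; Clu ranges from 2.91 to 4.55 and Anxa3 from 1.28 to 3.57.

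The direction of the 5 tested genes held with each of the 8 libraries left out in turn. Clu ranged between log2 fold changes of 2.91 and 4.55, Anxa3 between 1.28 and 3.57, Il33 between 1.28 and 2.33, Anxa1 between 0.85 and 1.95 and Tnfrsf12a between 0.92 and 1.37. Apart from Clu without knockout 3, none of the 5 was called in these fits; their lowest adjusted p-values by edgeR were 0.173 for Il33, 0.278 for Anxa3, 0.298 for Tnfrsf12a and 0.756 for Anxa1, each reached without knockout 3.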

How the data were processed

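Viable EpCAM+ Cd24+ cells of 4 controls and 4 knockouts were assigned to genotypes from the labels. The replicates were numbered here for naming only. The study describes the samples of a genotype as separate mice; of the numbers in the titles, 1 stands in both genotypes. Base calls were converted with bcl2fastq 2.19.1. The authors aligned reads with GSNAP to mm10 and deposited raw counts of uniquely mapped reads per gene (featureCounts 1.6.3, Ensembl release 92), with no normalization; the strand setting was not given in the sources used here, so overlapping genes are uncertain. The 92 spike-in rows, with at most 11 counts per library, were left out. Totals lay between 13037832 and 14380240.

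Counts were tested in R 4.3.3 with edgeR 4.0.16 (TMM, filterByExpr at a minimum of 10 counts and a total of 15, robust quasi-likelihood test), adjusted over 13439 genes. A standard error is the log2 fold change divided by the square root of F. DESeq2 1.42.0, limma-voom 3.58.1, other size factors and filters, the library set as a block, a Y-linked covariate and each library left out in turn were alternatives. The steps were tested on simulated data. Exact permutation tests ran over 70 divisions of the 8 libraries. Positions and exon lengths came with the deposited counts. GENCODE M21 was read only to check the build, and 96.9% of 53706 shared genes have the same span in it.

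The 9 members, the gene lists and the tests were chosen with earlier results of these data known. The genes named are all members, genes of each related list past both thresholds plus up to 4 of the highest per kilobase among those tested, and the 3 genes nearest to each of the 3 members with the highest mean normalized CPM; all other genes were chosen after their values were seen. A few genes of the lists enter the counts but are not reported by name.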

Additional observations from a re-analysis of the deposited data

Results flagged for a closer look

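Within the groups of 4, a library stood apart from the rest when its gap to the nearest other library was a large part of the group's range (Dixon's ratio, at the 95% critical value). This was so in 6 of the 16 groups of 4 examined. Chance gives about 1 in 20 for normally distributed values, a rate that does not carry over to groups of mostly 0 counts, such as those of Anxa8 and Spp1. For Clu, control 4 was lowest (ratio 0.957) and knockout 1 highest (0.853). Control 2 was highest for Anxa3 (0.886) and knockout 1 for Spp1 (0.887). Control 4 held the single count of Anxa8 (1.0). For Tnfrsf12a, knockout 4 was lowest (0.867). The libraries set apart for Anxa8 and Spp1 hold 1 and 9 counts of the gene.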

How the results depend on the processing

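The number of genes called, 25 in the fit reported, was 290 without a filter, 13 with at least 10 counts in every library, 138 by DESeq2's Wald test, 95 by limma-voom with quality weights and 10 with a Y-linked covariate. It was 38 with adjusted p-values up to 0.1 and 924 at an unadjusted p under 0.05, both without a limit on the fold change. With each library left out in turn it lay between 10 and 152, the latter without knockout 3. Members called, 0 as reported, numbered 1 without a filter (Ly6a), 1 by DESeq2, 1 in the blocked fit and 1 with adjusted p-values up to 0.1 (Clu in each), 2 at an unadjusted p under 0.05 (Clu and Tnfrsf12a), and 0 to 2 with a library left out, 2 of them (Clu and Ly6a) without knockout 3. With at least 10 counts in every library, 1 member, Tnfrsf12a, was tested and was higher. The median log2 fold change of the members tested, 1.89, lay between 1.28 and 2.9 with a library left out, the highest without control 2. These fits held 5 or 6 members, and all of them were higher. The added member, in the fits without a control or without knockout 3, was Ly6a. It passed the filter there through its knockouts, so that it had to be higher. Without control 2 its log2 fold change was 4.25, and Clu, Anxa3, Il33, Anxa1 and Tnfrsf12a had 4.31, 3.57, 2.22, 1.95 and 1.37.

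The log2 fold change of Clu had an adjusted p past the threshold by DESeq2 (4.25, 6.83e-07), with the block (3.91, 0.0469) and without knockout 3 (4.55, 0.0487), while with the Y-linked covariate it was 3.28 with an adjusted p of 0.339, the highest over its alternatives. No member tested changed direction under any alternative run. No paired analysis was possible because no source used here says which animals were littermates of each other; the library set, with 2 animals of each genotype, was used as a block. Depth limits Anxa8, Spp1 and Gja1, whose levels lay near the floor of 3 counts. The cause of these differences between settings was not tested.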

Other observations

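Pla2g2a, a Paneth cell phospholipase, fell into separate levels across the libraries of both genotypes: controls 2 and 3 had 7110 and 7442 counts and knockouts 1 and 2 had 9193 and 7978, whereas controls 1 and 4 had 165753 and 317744 and knockouts 3 and 4 had 386237 and 314099. Both levels occur in each genotype. Among the knockouts they are the same division as the library sets, and among the controls they are not. At the low level of Pla2g2a, Clu had 0.796 and 0.81 normalized CPM in controls and 36.9 and 8.24 in knockouts. At the high level, it had 0.817 and 0.317 in controls and 3.3 and 3.89 in knockouts. Plaur, the urokinase receptor gene of the regenerative programme, did not pass the filter, and had 5 counts over the controls and 29 over the knockouts (exact permutation p = 0.0571). Gjb5, another connexin gene under the filter, had 1 count over the controls and 32 over the knockouts (exact permutation p = 0.143). Other genes of these lists under the filter went the other way: Vsig1 had 14 counts over the controls and 0 over the knockouts (exact permutation p = 0.429), Ly6k 8 and 0 (0.429), Gja5 7 and 2 (0.2) and Gjb6 5 and 1 (0.143). Emp1, an epithelial membrane protein of the same programme, was at 0.872 ± 0.546 normalized CPM in controls and 2.88 ± 1.48 in knockouts (SD, n = 4 each), with an exact permutation p of 0.0571 and an adjusted p of 0.474 by edgeR. Anxa6 was at 3.41 ± 1.49 and 7.68 ± 1.93, with an exact permutation p of 0.0571 and an adjusted p of 0.4 by edgeR. All of these genes were named after their values were seen.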
